A study of Mus musculus with 9 samples.

Results

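The deposited table lists 59445 features of the mouse genome, of which 35957 carry no gene symbol. Of the latter, 1308 had a mean of at least 100 normalized reads over the 9 libraries, and these 1308 members are described here by position, length and host gene. A normalized read is a read count divided by 1 size factor per library, with no correction for length. The members were chosen by that mean, so their levels are a description. The rule did not use the genotype. Few symbol-less rows reached this level (3.64%), and 26561 of them were at 0 in every library, but the members held between 96.3% and 98.0% of all reads on symbol-less rows. They took 9.47% to 18.5% of all reads in the fl/fl libraries and 10.2% to 14.4% in the Mye-/- libraries.

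The libraries came from liver macrophages of male C57BL/6 mice, sorted as F4/80+ CD11b+ cells 24 h after 1 dose of carbon tetrachloride (CCl4), a liver toxin, given into the peritoneum at 0.6 mg/kg as labelled. The controls were 4 MAGL fl/fl libraries, all from mice 11 weeks old (S1, S3, S4 and S5). The other group was 5 MAGL Mye-/- libraries, of which S9, S10 and S11 came from mice 10 weeks old and S8 and S12 from mice 11 weeks old, and the younger age occurred in this group alone. MAGL is monoacylglycerol lipase, encoded by Mgll. Both groups received CCl4, and no label names the Cre line behind the myeloid deletion. The labels do not say whether each library came from a separate mouse, so p-values measure the spread between these libraries, which may be technical.

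Library totals ran from 33383559 to 46489349 reads. The genes behind the sort were present in every library: Itgam, which encodes CD11b, lay between 41570 and 55473 normalized reads and Adgre1, which encodes F4/80, between 4685 and 7801. Mgll itself was low, at 37.0 ± 47.4 (SD, n = 4) in fl/fl and 25.1 ± 21.2 (SD, n = 5) in Mye-/-, with overlapping groups, so it did not separate the genotypes here. Genes of other cell types moved between libraries: the sum of 4 erythroid markers was 5525 to 34959 in fl/fl and 2275 to 6532 in Mye-/-, and that of 7 hepatocyte markers was 659 to 1888 and 1197 to 10553. The 4 stellate cell markers summed to at most 71.6, with 2 of them at 0 throughout, and the 3 B cell markers to at most 123. The part of these cells in the results below was not tested.

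A row without a symbol can be several kinds of thing. A gene's introns are transcribed and then removed, and reads on them come mostly from unspliced RNA or from transcripts that begin or end inside the gene. A processed pseudogene is a copy of a spliced messenger RNA that was written back into the genome, and copies of mitochondrial DNA are found in the nuclear chromosomes too. Such copies can be so close to their source that a short read matches both places. Long noncoding RNAs, including the host transcripts of microRNAs, are transcribed without being translated.

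The sequences shown first are coding stretches of 60 bases from members that are pseudogenes, each above the same stretch of the closest coding transcript, because they show how little can separate a member from its parent. They are 5 of the pairs with high values, chosen after their values were seen. They were read from the GENCODE M21 transcripts (GRCm38) and run 5′ to 3′. Capitals mark mismatches, and positions count from the A of the parent's start codon.
Gm28661, nuclear copy on chromosome 1: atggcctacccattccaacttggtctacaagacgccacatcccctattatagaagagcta
mt-Co2, bases 1 to 60: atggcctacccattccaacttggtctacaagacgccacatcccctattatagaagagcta
Gm15500, chromosome 7: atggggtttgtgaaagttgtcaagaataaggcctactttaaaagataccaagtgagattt
Rpl5, bases 1 to 60: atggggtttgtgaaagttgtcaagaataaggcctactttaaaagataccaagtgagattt
Rpl23a-ps3, chromosome 14: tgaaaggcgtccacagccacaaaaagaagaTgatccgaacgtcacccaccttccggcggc
Rpl23a, bases 86 to 145: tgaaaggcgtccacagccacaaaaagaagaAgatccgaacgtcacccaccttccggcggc
Gm15772, chromosome 5: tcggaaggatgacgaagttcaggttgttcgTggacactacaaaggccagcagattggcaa
Rpl26, bases 147 to 206: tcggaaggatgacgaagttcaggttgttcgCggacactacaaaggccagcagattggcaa
Gm12715, chromosome 4: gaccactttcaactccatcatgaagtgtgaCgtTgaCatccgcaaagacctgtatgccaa
Actg1, bases 828 to 887: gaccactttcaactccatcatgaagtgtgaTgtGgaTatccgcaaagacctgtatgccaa
The first 2 pairs had 0 mismatches over 681 and 891 coding bases. Rpl23a-ps3 had 1 mismatch over 468 coding bases, Gm15772 had 2 over 435 and Gm12715 had 4 over 1125. Gm8355, not printed, had 25 mismatches to Hspa8 over 1938 coding bases.

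Of the members, 23 hold a microRNA hairpin of RefSeq (GRCm38.p6) within their span. Mature microRNAs of 3 of these members are printed, chosen after their values were seen. A seed (bases 2 to 8, in capitals) is shared within 2 of the clusters. Seeds are shared in members not printed too, such as by miR-212-3p and miR-132-3p in 1700016P03Rik and by let-7f-5p and miR-98-5p in Huwe1.
miR-17-5p, in Mir17hg: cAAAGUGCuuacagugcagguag
miR-20a-5p, in Mir17hg: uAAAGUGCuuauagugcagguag
miR-18a-5p, in Mir17hg: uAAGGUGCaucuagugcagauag
miR-19a-3p, in Mir17hg: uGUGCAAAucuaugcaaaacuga
miR-19b-3p, in Mir17hg: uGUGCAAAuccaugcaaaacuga
miR-92a-3p, in Mir17hg: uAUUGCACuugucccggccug
miR-142a-5p, in Mir142hg: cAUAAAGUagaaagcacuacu
miR-142a-3p, in Mir142hg: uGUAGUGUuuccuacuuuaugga
let-7a-5p, in 6720427I07Rik: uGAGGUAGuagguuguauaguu
let-7f-5p, in 6720427I07Rik: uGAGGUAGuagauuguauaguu
let-7d-5p, in 6720427I07Rik: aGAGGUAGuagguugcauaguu
Within Mir17hg, miR-17-5p and miR-20a-5p share 1 seed and miR-19a-3p and miR-19b-3p another, while the 3 let-7 members have the same seed. The libraries measured RNA per table row and not mature microRNAs.

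By position, the 1308 members fell into 8 classes that do not overlap, assigned in the order in which they are given. There were 12 members on the mitochondrial chromosome and 140 that share the span of a row with a symbol (Jaccard overlap of at least 0.8). Another 391 touched an exon of a GENCODE protein-coding gene, 351 an exon of a pseudogene and 117 a noncoding exon. The remaining members lay in introns (218), within 5 kb of a gene (62) or further away (17). Relative to the table's own rows, 478 members lay wholly inside a row with a symbol, 254 overlapped one in part and 576 were outside all of them. A GENCODE gene of nearly the same span (Jaccard overlap of at least 0.8) was found for 363 members. The table gives no strand, so members antisense to a gene could not be told from members in sense.

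Lengths ran from 21 bases to 3103341 bases, with a median of 2212, and 112 members were shorter than 100 bases. The longest, GSMG0052774 (chr12:112896981-116000321), spans the immunoglobulin heavy chain locus and read 3714, 2009, 2627 and 1872 in fl/fl and 1516, 3134, 2899, 3677 and 2945 in Mye-/-, with overlapping groups. The shortest included GSMG0059306 (chr13:81065674-81065694), 21 bases of the pseudogene Gm8399, with a mean of 2913. Most members were modest in level: 1056 had a mean under 1000, 213 lay above that but below the 39 highest, among which the mitochondrial rows and their copies lead. At the lower edge, 3 members just inside the limit had means of 100.1 (GSMG0023053), 100.2 (GSMG0016088, in Runx1) and 100.4 (GSMG0070932, sharing the span of Kdm5c). The 3 rows just outside had means of 99.7 (GSMG0004511 and GSMG0020774) and 99.9 (GSMG0009026, in Max). There were 197 members at 0 in at least 1 library, and 1111 above 0 in all 9.

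The highest member was GSMG0041514 on the mitochondrial chromosome (chrM:5325-6941), which holds mt-Co1, a core subunit of cytochrome c oxidase of the respiratory chain. In library order, the fl/fl values were 709436, 2093426, 1010409 and 1355184 and the Mye-/- values 1462102, 1354884, 776750, 1363884 and 939555. The groups overlap, S3 is the highest and S1 the lowest of the 9, and the log2 difference (Mye-/- minus fl/fl) was -0.06 (limma adjusted p = 0.97). Next on this chromosome came GSMG0041518 (mt-Nd5 and mt-Cytb) with a mean of 452149, GSMG0041512 (mt-Rnr2 and mt-Nd1) with 251345 and GSMG0041516 (mt-Nd4 and mt-Nd4l) with 243143. Of the 12 mitochondrial members, 3 were higher and 9 lower in Mye-/-, and 0 passed an unadjusted p of 0.05 with limma. Single libraries set this count: it was 9 higher and 3 lower without fl/fl S3, 0 and 12 without fl/fl S1, and 7 and 5 without Mye-/- S10 or without Mye-/- S12.

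The table has no mitochondrial row between bases 6942 and 9202, a stretch of 2261 bases that holds mt-Co2, mt-Atp8 and mt-Atp6 and the start of mt-Co3. Rows that match mt-Co2 and mt-Co3 were listed on chromosome 1 inside Lmbrd1, a gene for a lysosomal membrane protein. Whether their reads came from the mitochondrial or the nuclear copies was not tested. GSMG0043411 (chr1:24613188-24614814), 1627 bases long, touches exons of Gm28437 and Gm10925. The pseudogene Gm28437 matched mt-Co3 at 100% over 783 bases, and no match is given here for the rest of the row. The whole row read 348480, 988442, 476699 and 627112 in fl/fl and 735154, 637140, 287666, 632680 and 433856 in Mye-/-, against a mean of 2263 for the Lmbrd1 row itself. GSMG0043410 (chr1:24614879-24615568), the pseudogene Gm28661 shown above, read 187195, 392929, 230296 and 257309 in fl/fl and 298076, 276667, 172922, 268752 and 187157 in Mye-/-. In both, S3 was again the highest library and the groups overlapped.

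Divided by mt-Co1 in the same library, GSMG0043411 lay between 0.370 and 0.503 and GSMG0043410 between 0.188 and 0.264. The mitochondrial row of mt-Nd4 ranged from 0.163 to 0.220 of mt-Co1. Per kb of span, GSMG0043411 and GSMG0043410 had 352881 and 365749 normalized reads, between mt-Co1 at 760368 and mt-Nd4 at 145682. The values of GSMG0043411 are those of a row that also holds Gm10925, and not of the mt-Co3 copy alone. The neighbouring copies were far lower. GSMG0043412 (Gm29216, 1 mismatch to mt-Co1) had a mean of 1433 and was at 0 in Mye-/- S10, and GSMG0070249 (Gm28439, identical to mt-Nd4) had a mean of 3273. Both mt-Co1 and mt-Nd4 have rows of their own on the mitochondrial chromosome, whereas mt-Co2 has none and mt-Co3 has only part of 1 low row, GSMG0041521, with a mean of 1087. The chromosome 1 copies together took 1.39% to 3.37% of reads in fl/fl and 1.27% to 2.59% in Mye-/-.

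**Figure D1:**
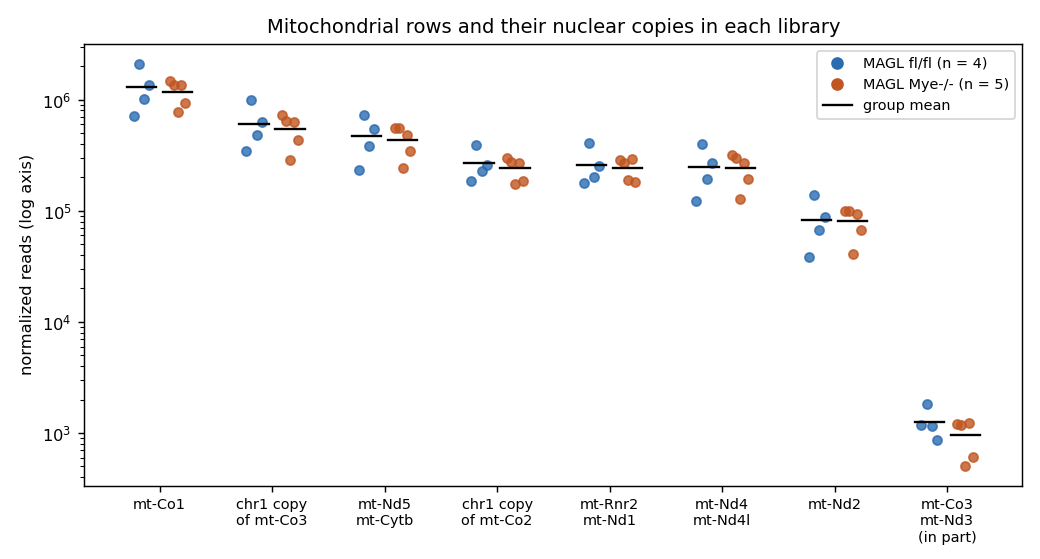
Normalized reads (log axis) of 6 mitochondrial rows and 2 nuclear copies on chromosome 1 in each library, with fl/fl libraries in blue, Mye-/- libraries in orange and black lines at group means. The rows labelled as copies of mt-Co3 and mt-Co2 lie among the mitochondrial rows and move with them, with S3 the highest library in each of these rows. The row labelled as a copy of mt-Co3 also holds Gm10925.

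Pseudogene members, each touching a pseudogene exon, numbered 351, from 304 pseudogenes, and most of these pseudogenes were close copies of a coding transcript. Identities are those of the pseudogene transcript and not of the member's whole span. Annotated exons covered 1.83% of GSMG0043342 (Gm8399) and 98.7% of GSMG0043410 (Gm28661). The closest coding transcript had a median identity of 99.1% (quartiles 97.9% and 99.7%), 324 members reached 95% or more and 47 were identical over the aligned stretch. A row for the parent gene was found for 345 of them. The member's mean was a median of 13.8% of the parent row's mean, and 61 members exceeded their parent. These 61 include 44 of the 181 members with an identity of 99% or more and 8 of the 63 under 97%. Those values carry no correction for length. Per kb of member span and of parent exons, the median ratio of member to parent was 1.26, and 182 members exceeded their parent. No source used here says how reads that match several places were assigned, and the split between a member and its parent is uncertain throughout.

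Ribosomal proteins gave the plainest cases. GSMG0036555 (chromosome 7, Gm15500) read 40286 on average against 3360 for Rpl5, a protein of the large ribosomal subunit, and held 90.1% to 93.8% of the reads of the pair in every library. GSMG0066428 (Rpl23a-ps3) read 35862 against 2669 for Rpl23a, with 90.5% to 94.8% of the pair. GSMG0068079 (Gm14303, chromosome 2) read 36031 against 410 for Rps29, with 97.8% to 99.5% of the pair. GSMG0043151 (Gm15772) read 44738 against 16452 for Rpl26, with 70.2% to 76.5% of the pair. Rows bearing the ribosomal gene's own symbol therefore listed fewer reads than their copies in all 9 libraries for these 4 pairs.

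Other parents included abundant housekeeping genes. GSMG0065488 (Gm8355, 98.7% identical to Hspa8, a constitutive heat shock protein) had a mean of 39973 against 128936 for Hspa8. GSMG0043295 (Gm12715) had 32714 against 58702 for Actg1, cytoplasmic gamma actin. GSMG0070317 (Gm10221, identical to Atp5l, a subunit of ATP synthase) had 18085 against 668, with 94.4% to 98.4% of the pair. GSMG0043230 (Oaz1-ps) had 30011 against 10120 for Oaz1, the regulator of polyamine synthesis. The share of the pair held by Gm12715 ranged from 28.4% to 41.0% and that held by Gm8355 from 22.0% to 30.4%.

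A few pseudogene members are not close copies. GSMG0014132 (I830127L07Rik, chr15:75131377-75135129) is 84.7% identical to Ly6i, a member of the Ly6 family of surface proteins, and its mean of 11388 stood against 95.9 for Ly6i. GSMG0036453 (Gm8995) is 91.8% identical to Gvin1, an interferon-inducible large GTPase, and had a mean of 5222 against 17696.

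**Figure D2:**
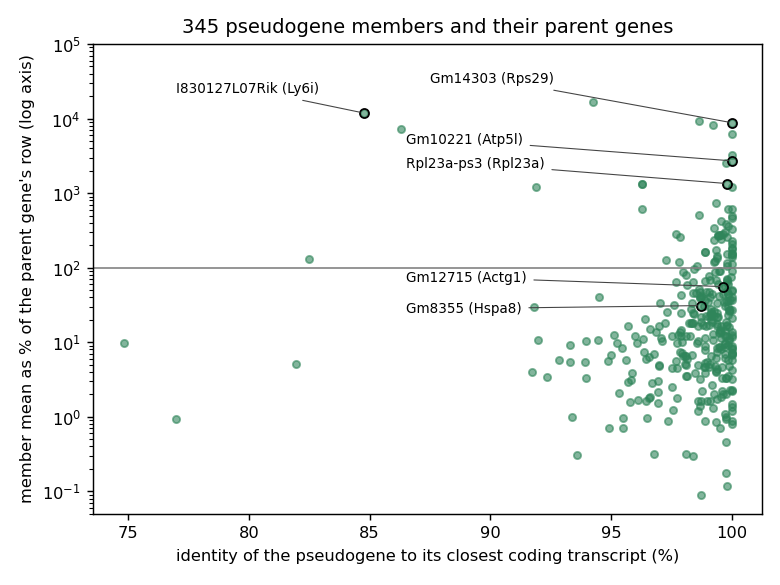
Mean of each pseudogene member as a percentage of its parent gene's row (log axis) against the identity of the pseudogene to its closest coding transcript (%), for 345 members. The horizontal line marks equal values, 61 members lie above it, and 6 labels name a pseudogene and, in brackets, its parent.

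Most of the 140 members that share a span with a row bearing a symbol held a small share of that row. A member needs a mean of at least 100, which sets a lower bound on its share. The class had a median mean of 175, so many members lay near that limit. Within a pair the share could move widely: over Ddost it ran from 0.016% in fl/fl S3 to 3.09% in Mye-/- S11. Over the 138 pairs whose symbol row was above 0, the member's mean was a median of 1.68% of the symbol row (quartiles 1.15% and 2.75%), and 119 pairs lay between 0.5% and 5%. The median share per library was 1.52% ± 0.12 (SD, n = 4) in fl/fl and 1.57% ± 0.14 (SD, n = 5) in Mye-/-, with overlapping ranges. GSMG0067001, over Mpeg1 (perforin-2, a macrophage pore-forming protein), had a mean of 2394 against 138965. GSMG0034245, over Zfp36 (an RNA-binding protein that destabilises cytokine messages), had 1698 against 160180. GSMG0020082, over the ferritin heavy chain gene Fth1, had 1559 against 147785.

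At the other end, 9 members exceeded 10% of their symbol row and 4 exceeded 100%. GSMG0067809, over Uqcrh (a subunit of respiratory complex III), had 14524 against 13478, or 108% of the symbol row. GSMG0069869, over the co-chaperone gene Stip1, reached 14.5%. The members over Cd27, Celf3 and Gm21057 exceeded their symbol rows, which had means of 25.3, 6.67 and 1.58. Whether a member of this class lies on the opposite strand of its symbol row could not be read from the table.

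**Figure D3:**
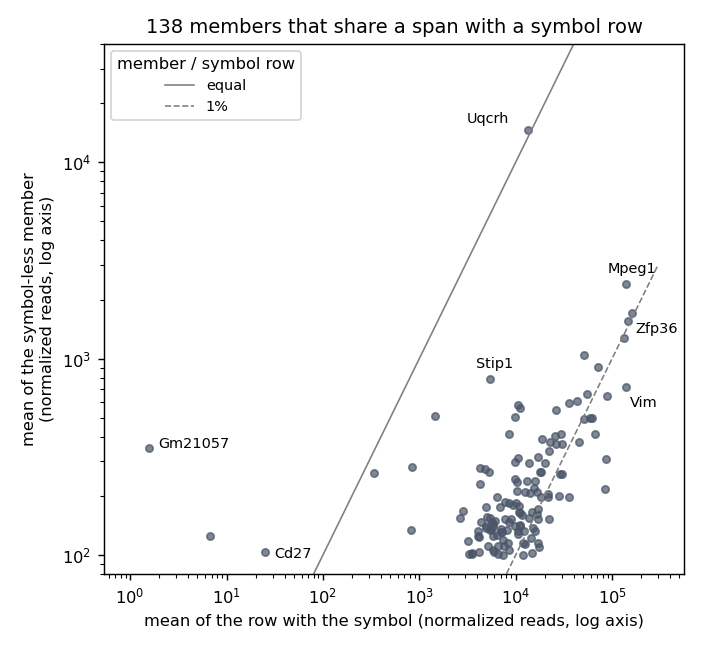
Mean of each symbol-less member against the mean of the row with the symbol that has the same span, both in normalized reads on log axes, for 138 pairs. Of these pairs, 119 lie between 0.5% and 5% (dashed line, 1%), and Uqcrh lies close to the line of equal values.

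Members that touched a protein-coding exon included several whole genes. GSMG0017445 (chr17:34956432-34972340) spans Hspa1a and Hspa1b, near-identical genes for inducible heat shock protein 70. It read 13984, 188850, 56341 and 49045 in fl/fl and 127845, 58102, 236329, 39555 and 109457 in Mye-/-. Mye-/- S10 and fl/fl S3 were the highest, fl/fl S1 was the lowest, and the groups overlapped (log2 difference 0.86, SE 0.54, limma adjusted p = 0.59). The 3 Jun family genes, subunits of the AP-1 transcription factor, were all members. GSMG0038695 (Junb with Prdx2) had a mean of 92843, GSMG0028080 (Jun) 52022 and GSMG0037396 (Jund, inside Pik3r2) 18076.

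The Jun row read 21344, 88265, 40723 and 45351 in fl/fl and 66306, 46764, 63326, 39447 and 56671 in Mye-/-. Its highest and lowest libraries, S3 and S1, were both fl/fl, and the log2 difference was 0.31 (limma adjusted p = 0.74). GSMG0006428, an exon of Rel, a subunit of NF-kappa B, had 6087 in fl/fl against 7970 in Mye-/- (limma adjusted p = 0.43). GSMG0012808 (chr14:102978220-102982528), over Kctd12 and the noncoding gene Gm26778, read 17817, 17090, 14680 and 16315 in fl/fl and 27853, 25309, 27033, 22737 and 18161 in Mye-/-. Its groups did not overlap, with a log2 difference of 0.54 (SE 0.14), but the limma adjusted p was 0.22.

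Noncoding members included whole long noncoding RNAs and host transcripts of microRNAs. GSMG0050945 (chr17:39842997-39848829), which overlaps Gm26917, Gm42418 and AY036118 in a stretch annotated in part as ribosomal RNA, was the highest of the class. It read 137131, 430597, 198265 and 76688 in fl/fl and 83870, 102807, 69804, 49603 and 44490 in Mye-/-. Fl/fl S3 stood highest, and fl/fl S5 lay below the 2 highest Mye-/- libraries, so the groups overlapped (log2 difference -1.37, SE 0.35, limma adjusted p = 0.22). GSMG0065072, a stretch of Neat1, the RNA scaffold of nuclear paraspeckles, read 4966, 10958, 7808 and 6887 in fl/fl and 8686, 14487, 13550, 8378 and 12920 in Mye-/- (log2 difference 0.62, limma adjusted p = 0.32).

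GSMG0066251 (chr14:115042879-115046727), the host transcript Mir17hg whose microRNAs are printed above, read 67.3, 112, 94.3 and 29.9 in fl/fl and 544, 333, 251, 145 and 117 in Mye-/-. The groups did not overlap, although Mye-/- S12 at 117 was close to fl/fl S3 at 112, and the log2 difference of 1.80 (SE 0.66) had a limma adjusted p of 0.35. Its mean was 75.9 in fl/fl and 278 in Mye-/-, so it reached the level for members through Mye-/- alone. The choice of this member was therefore not independent of the difference. GSMG0005727, the host Mir142hg of the blood-cell microRNA miR-142, read 1566, 898, 1176 and 688 in fl/fl and 1583, 1510, 1272, 1429 and 1447 in Mye-/-, with overlapping groups. GSMG0066066, which holds the let-7 hairpins, had a mean of 113 in fl/fl and 156 in Mye-/- and was at 0 in S3. GSMG0032641 (Gm44428 and 2010013B24Rik, chr6:145303058-145314941) read 252, 150, 203 and 388 in fl/fl and 781, 595, 660, 933 and 512 in Mye-/-, with no overlap (log2 difference 1.54, SE 0.35, limma adjusted p = 0.19).

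Intron members numbered 218. A row with a symbol contained 208 of them, in 185 host genes, and the member's mean was a median of 10.8% of its host's mean (quartiles 4.07% and 26.9%). There were 15 members above their host. The highest, GSMG0019239 in 1700030N03Rik, had a mean of 15012 while its host was listed at 0. GSMG0065209, in the metalloprotease gene Adamts6, had 7264 against 374 for the host. GSMG0065192, 112 bases within Wrap53, had 3522 against 610. GSMG0031089, in Rilpl2, read 1616, 1938, 1085 and 2807 in fl/fl and 3075, 4697, 2358, 3452 and 2156 in Mye-/-, with overlapping groups.

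GSMG0022830, in Nr4a2, which encodes a nuclear receptor with no known natural ligand, read 204, 119, 168 and 372 in fl/fl and 443, 724, 377, 410 and 398 in Mye-/-. Its groups did not overlap, though fl/fl S5 at 372 lay just below Mye-/- S10 at 377, and the limma adjusted p was 0.33. GSMG0013513, in Trabd, read 0, 14.3, 0 and 184 in fl/fl and 255, 268, 257, 186 and 176 in Mye-/-. Fl/fl S5 stood within the Mye-/- range while the other fl/fl libraries were near 0, and the limma adjusted p was 0.22. With means of 49.7 in fl/fl and 228 in Mye-/-, GSMG0013513 reached the level for members through Mye-/- alone.

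Outside GENCODE genes, 62 members lay within 5 kb of one. Of these, 41 were downstream, at a median of 900 bases, and 21 upstream, at a median of 585. A member of this class can still lie inside a row with a symbol, as GSMG0036411 did in the row of Trim34a and Trim34b. GSMG0069015, 4079 bases upstream of the helicase gene Dhx40, was the highest with a mean of 10361. GSMG0066977, near the glutathione transferase gene Gstp3, read 2709, 2585, 2129 and 3235 in fl/fl and 3352, 4881, 3219, 4010 and 3857 in Mye-/-. Fl/fl S5 lay just above Mye-/- S10, and the limma adjusted p was 0.27. Among the 17 members further away, GSMG0066071 had the highest mean, 1312. GSMG0022795 read 504, 463, 294 and 267 in fl/fl and 103, 137, 232, 128 and 149 in Mye-/-, without overlap (log2 difference -1.34, limma adjusted p = 0.33).

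The genotype comparison asked which members differed between Mye-/- and fl/fl macrophages after CCl4. It was fitted with limma on log2(value + 1) over all 15288 features with at least 10 normalized reads in at least 4 libraries, of which 1302 were members and 6 members were not. A single member passed an adjusted p of 0.05, GSMG0067294 in Nfe2l2, against 3 of all features tested (0.0196%). At an unadjusted p of 0.05, 104 members were higher in Mye-/- and 39 lower, against 6.38% and 4.13% of all features. Groups did not overlap for 25 members higher in Mye-/- and 17 lower, against 1.7% and 1.6% of all features. These counts by direction include members that reached the level for members through 1 group alone, as described below. The tested members split into 719 higher and 583 lower. Their median log2 difference was 0.08, beside 0.06 over all features. On the recovered whole reads DESeq2 called 6 members, against 0.958% of features, and edgeR called 1, against 0.0131%.

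Position classes differed in their counts. Of 218 intron members, 160 were higher and 58 lower in Mye-/- (median log2 difference 0.41). Of 116 noncoding members tested, 92 were higher and 24 lower, with a median of 0.54. Pseudogene members had the opposite balance, with 119 higher and 227 lower of 346 and a median of -0.13. Protein-coding exon members had 225 higher and 166 lower (median 0.10), and members on the span of a symbol row 79 higher and 61 lower (median 0.09, and -0.02 with DESeq2). Rows with a symbol and a mean between 100 and 1000 had a median of 0.05. The host rows of intron members also leaned higher, with 116 of 180 higher and a median of 0.08. Over all features tested, 54.6% were higher. None of these class medians carries a test.

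Members chosen by a mean over both groups can enter through 1 group, and there are 5 Mye-/- libraries to 4 fl/fl. A mean of at least 100 was reached in Mye-/- alone by 97 members and in fl/fl alone by 70. Such members are among those counted above by unadjusted p and by overlap, and these counts were not repeated without them. Of the members that reached this mean in each group, 611 were higher and 526 lower (median 0.05). Among members whose mean was at least 100 in each group, 128 intron members were higher and 47 lower (median 0.39), 78 noncoding members were higher and 22 lower (median 0.41), and 110 pseudogene members were higher and 216 lower (median -0.13). With age as a covariate, the intron median was 0.36 (146 of 218 higher), the noncoding median 0.41 and the pseudogene median -0.05 (157 higher and 189 lower). Because the younger age occurred in Mye-/- alone, these differences are those of fl/fl against Mye-/- S8 and S12, and mice 11 weeks old alone gave the same values.

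In single libraries the groups overlapped in all 3 classes. The intron median, relative to each member's own mean log2 level, was -0.19, -0.13, -0.08 and 0.23 in the fl/fl libraries and 0.41, 0.52, 0.36, 0.20 and -0.01 in the Mye-/- libraries, in the same order as above. Fl/fl S5 therefore lay among the Mye-/- libraries and Mye-/- S12 among the fl/fl libraries. The noncoding median was -0.09, -0.09, -0.25 and 0.03 in fl/fl, and 0.26, 0.50, 0.45, 0.34 and -0.04 in Mye-/-, with S12 again low. The sum of 5 macrophage and sort markers was 322578 to 524398 in fl/fl and 257778 to 321254 in Mye-/-. Among its members, Adgre1 had means of 5433 in fl/fl and 6443 in Mye-/-, Itgam 48739 and 49711, and Csf1r 47102 and 53808. These 3 did not share the lower sum, which therefore lay in the other markers summed, Cd68 and Lyz2. The sum of 4 monocyte markers was 254063 to 461766 in fl/fl and 257491 to 462954 in Mye-/-. That of 6 Kupffer cell markers was 63.3 to 567 and 205 to 1992, and that of 5 neutrophil markers 4849 to 8173 and 1723 to 6960. The part of these markers in the class medians was not tested. In bulk libraries, fewer cells of a type and less RNA per cell cannot be told apart.

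**Figure D4:**
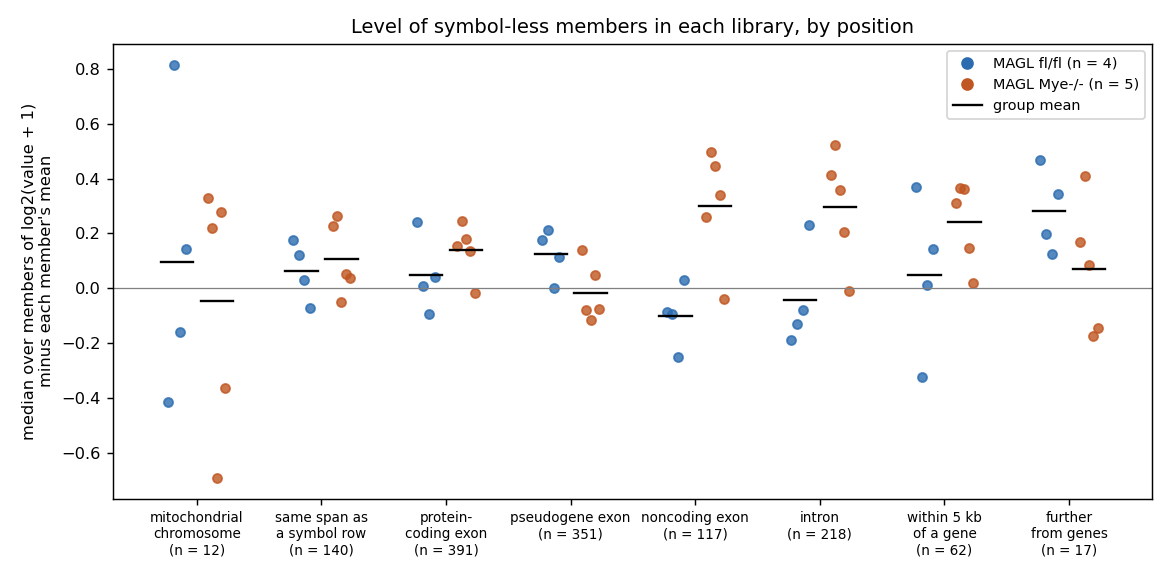
Median over the members of each position class of log2(value + 1) minus each member's own mean, 1 point per library, fl/fl in blue and Mye-/- in orange, with black lines at group means. For introns, 3 of 4 fl/fl libraries lie at or below -0.08 and 4 of 5 Mye-/- libraries at or above 0.20, while fl/fl S5 (0.23) and Mye-/- S12 (-0.01) cross.

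The signs of ribosomal protein pseudogenes and of their parents were mostly negative. Of 76 members with a ribosomal protein parent, 24 were higher and 52 lower in Mye-/- (median -0.17), and of their 41 tested parent rows 35 were lower (median -0.19). The other pseudogene members had 95 higher and 175 lower (median -0.12), and 145 of their 204 parent rows were lower (median -0.14). Members and parents may share reads, so these counts are not independent. I830127L07Rik (GSMG0014132) read 21236, 15414, 12932 and 9930 in fl/fl and 9613, 8754, 7203, 9172 and 8239 in Mye-/-. Every fl/fl library was above every Mye-/- library (log2 difference -0.74, SE 0.18, limma adjusted p = 0.21). GSMG0070185 (Gm10123) read 273, 530, 590 and 387 in fl/fl and was at 0 in 4 of 5 Mye-/- libraries, with 294 in S9 (limma adjusted p = 0.17). With means of 445 in fl/fl and 58.8 in Mye-/-, it reached the level for members through fl/fl alone.

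The member that passed lies in an intron of Nfe2l2, which encodes NRF2, the transcription factor that turns on antioxidant and detoxifying genes. GSMG0067294 (chr2:75694819-75696041) read 637, 838, 704 and 702 in fl/fl and 1726, 1929, 1701, 1565 and 1531 in Mye-/-. The groups were far apart, at 720 ± 84.5 (SD, n = 4) and 1690 ± 158 (SD, n = 5), with a log2 difference of 1.23 (SE 0.19, limma adjusted p = 0.026). The row of Nfe2l2 itself had a mean of 26243 and a log2 difference of 0.12 (limma adjusted p = 0.82). The log2 difference was 1.18 both with age as a covariate and among the mice 11 weeks old alone (4 fl/fl, 2 Mye-/-), where the call was lost (limma adjusted p = 0.74 and 0.98). It was also lost without fl/fl S4 or without any 1 of the 5 Mye-/- libraries, with adjusted p between 0.062 and 0.11.

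Other members at Nfe2l2 did not pass. GSMG0023001 (chr2:75700504-75703982) read 870, 1912, 897 and 2092 in fl/fl and 3076, 3543, 2358, 2414 and 2427 in Mye-/-, without overlap (log2 difference 1.04, SE 0.25, limma adjusted p = 0.22). GSMG0067293 read 2411, 1957, 1008 and 862 in fl/fl and 1491, 1300, 1764, 1102 and 1010 in Mye-/-, with overlapping groups. GSMG0067292 read 44.1, 15.5, 61.1 and 181 in fl/fl and 165, 104, 238, 194 and 122 in Mye-/-, with fl/fl S5 inside the Mye-/- range. With means of 75.4 in fl/fl and 165 in Mye-/-, it reached the level for members through Mye-/- alone. GSMG0021250, over the whole span, had 293 ± 108 (SD, n = 4) in fl/fl and 430 ± 99.2 (SD, n = 5) in Mye-/-, again with overlap. These 5 members share 1 gene and are not replicates of each other.

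**Figure D5:**
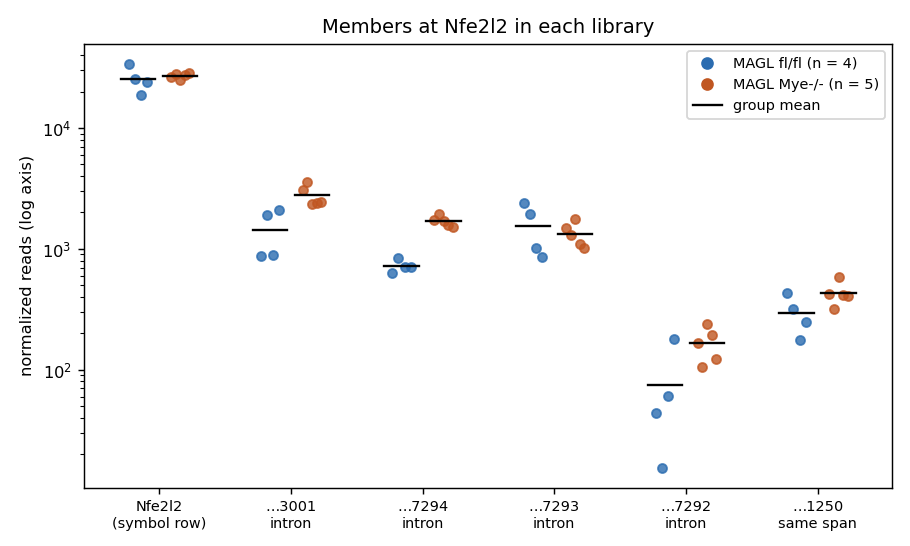
Normalized reads (log axis) in each library of the Nfe2l2 row and the 5 members at the gene, named by the last 4 digits of their IDs, fl/fl in blue, Mye-/- in orange, black lines at group means. GSMG0067294 separates the groups (637 to 838 against 1531 to 1929), while the Nfe2l2 row overlaps.

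Members inside a row with a symbol were also compared as a ratio to that row, to ask whether member and host differed unequally. Over 1629 pairs, 438 of them members, 3 passed a limma adjusted p of 0.05 (0.184%) and 0 of these were members. At an unadjusted p of 0.05 there were 7 members, against 7.31% of all pairs, and the smallest adjusted p among members was 0.32. For GSMG0067294 the share of the Nfe2l2 row was 1.89% to 3.78% in fl/fl and 5.37% to 6.92% in Mye-/-, without overlap. Its log2 ratio difference was 1.11 with an SE of 0.63 (limma adjusted p = 0.79). In this fit limma draws each pair's variance toward a value shared by all pairs, and the median SE over members was 0.82. The SE is therefore not the spread of this member's share alone, and the p-value does not show that member and host differ equally. Of 203 intron members tested, 140 had a higher ratio in Mye-/- (median 0.27), beside 990 of all 1629 pairs (median 0.36).

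By gene list, 9 members belonged to NRF2 and iron genes, of which 5 are the Nfe2l2 members, and 8 of the 9 were higher in Mye-/- (median 0.53, 1 passing). The remaining 4 overlap Fth1, Hmox1, Txnrd1 and Ftl1. GSMG0069640, over the heme oxygenase gene Hmox1, had a mean of 216 in fl/fl and 290 in Mye-/- (limma adjusted p = 0.75). Of 11 members at splicing factor genes 10 were higher (median 0.30, 0 passing), and of 16 at immediate early genes 10 were higher and 6 lower (median 0.08, 0 passing). Of 34 tested members at ribosomal protein genes 6 were higher and 28 lower (median -0.24, 0 passing). The 3 interferon-list members had 2 higher and 1 lower, and no member matched the histone list. Over all features tested, 54.6% were higher and 0.0196% passed. Some members of a list share a gene, such as Tra2a or Srsf11. Of the 35 members at ribosomal protein genes, 23 are pseudogene members, a class already described. The lists are therefore not independent of each other's genes or of the classes above, and none carries a test.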

How the data were processed

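Values were deposited by the authors as a normalized signal: read counts per feature divided by 1 DESeq size factor per library, with no length correction, on mm10. STAR 2.4.0, SAMtools, Picard, FastQC and DESeq are named per the submitters' processing notes. The counting tool, its strand setting and its treatment of reads that match several places are not given in the sources used here. Whole reads were recovered for 100% of values (within 0.01 reads) and used only in the edgeR 4.0.16 and DESeq2 1.42.0 alternatives. Library totals were 33383559 to 46489349 reads.

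Positions were assigned with GENCODE M21 (GRCm38) exons in the order given above. Pseudogene transcripts were aligned to coding transcripts with BLAST 2.17.0 (e-value 1e-10), and the parent is the best hit. Genotype was compared with limma 3.58.1 (R 4.3.3, trended, pseudocount 1, two-sided, Benjamini-Hochberg, 0.05) over features that reached 10 in 4 or more libraries, and ratios to the host row without the trend. Differences on log2(value + 1) understate the fold of features that are low throughout, and exceed the fold of group means where some libraries of a group are at 0. Scripts were tested on simulated data.

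The members and lists were chosen with earlier results of these data known. Named members are those past the threshold, those with the highest means, smallest p, extreme ratios to the host and extreme lengths, the highest of each class, and those beside the limit of 100; others named, such as pseudogene, microRNA and marker-list examples, were chosen after their values were seen. Overlapping rows, near-identical copies and antisense genes could not be separated.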

Additional observations from a re-analysis of the deposited data

Results flagged for a closer look

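Among 64 named members, the highest and lowest library of each group were compared with the rest (128 groups), and 7 groups held a library far from the others. The limit used is one that chance passes in about 1 in 20 groups, and these members were not picked at random. In fl/fl S1, 2 members at Gm8399, a pseudogene of Actg1, were high: GSMG0043342 at 22806 (next 9335) and GSMG0059306 at 5066 (next 2958). In fl/fl S5, GSMG0013513 in Trabd was at 184 (next 14.3) and GSMG0070256, which touches Pgam5 and Pxmp2, at 125 (next 1.16). In Mye-/- S10, GSMG0012426 at Nedd8 was high at 567 (next 170), and GSMG0067809 at Uqcrh was low at 10344 (next 14049). In Mye-/- S9, GSMG0070185 at Gm10123 was at 294 while the other 4 libraries were at 0.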

How the results depend on the processing

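The count of members that differ between genotypes was 1, and it was 2 with a pseudocount of 8, 0 with age as a covariate, 0 in mice 11 weeks old alone, 6 with DESeq2 (against 146 of 15243 features, 0.958%) and 1 with edgeR (against 2 features, 0.0131%). Leaving out 1 library at a time gave 0 to 4 members: 2 without fl/fl S3, 4 without fl/fl S5, and 0 without fl/fl S4 or Mye-/- S8, S10, S11 or S12. Without Mye-/- S9 the 1 member called was GSMG0070185 and not GSMG0067294. The count of members whose ratio to the host differs was 0, and 0 to 1 when a library was left out (1 without fl/fl S5). Calls over all features are given for the main fits, DESeq2 and edgeR alone. In the other alternatives, a change in the count cannot be told from a change over all features. The log2 difference of GSMG0067293 was -0.12, and leaving out 1 library gave -0.36 (fl/fl S5) to 0.13 (fl/fl S1), with a positive 0.03 when S3 was dropped. The number of members inside a row with a symbol was 478, 842 with a mean limit of 50 and 252 with 200. Over 21 alternatives the class median was 0.22 to 0.52 for introns, 0.39 to 0.60 for noncoding exons and -0.19 to -0.05 for pseudogenes. Among these alternatives, age as a covariate and mice 11 weeks old alone gave the same class medians. The class median changed sign in 4 classes: -0.02 to 0.15 on the span of a symbol row, -0.08 to 0.22 within 5 kb of a gene, -0.28 to 0.12 on the mitochondrial chromosome and -0.30 to 0.01 further away. The cause of these changes was not tested. No paired analysis was possible because the groups share no replicate numbers. The part of sequencing depth in the 197 members at 0 in at least 1 library was not tested.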
